A study of Mus musculus with 721 samples.

Results

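Transcripts that mark simple epithelia were followed through early mouse development: the keratins Krt8, Krt18 and Krt19, the claudins Cldn4, Cldn6 and Cldn7, the scaffold gene Tjp1 and the occludin gene Ocln. They were taken by symbol, and each of the 8 had 1 row among the 24483 gene rows of the count table. All 8 also passed the filter on low counts that left 13336 genes for testing.

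The study sequenced RNA from cells picked by hand from wild-type C57Bl/6Babr mouse embryos, with no treatment and no modified allele in any group. The libraries came from E3.5 (99 libraries, 9 embryos and 9 cells with no embryo number that were taken as 1 more), E4.5 (105, 5 embryos), E5.5 (267, 9 embryos) and E6.5 (250, 13 embryos, some of them titled E6.75). E6.5 embryos with no plate name were kept apart by title and number, and whether they are separate animals is not given. The paper counts fewer embryos over all stages than the 37 taken here, so some may be the same animal. Each n below counts embryos as labelled. At E3.5 and E4.5 the trophectoderm, the outer epithelium of the blastocyst, had been lysed with antiserum to isolate the inner cell mass and what it becomes. Of the 99 E3.5 cells 10 still held a trophectoderm gene (Cdx2, Gata3 or Elf5), as described below. At E5.5 the epiblast and its covering endoderm were separated by dissection and at E6.5 the extra-embryonic region was cut away. Library totals ran from 66896 to 3792936 counts with a median of 692863, and some wells held 2 cells as seen when picked.

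Cells were put into classes by clustering without these 8 genes and without other junction, filament and epithelial genes, and each class was named from its markers. E3.5 was kept as 1 class (99 cells). E4.5 gave 23 epiblast-like and 82 primitive endoderm-like (PrE-like) cells, E5.5 gave 259 epiblast-like and 8 endoderm-like cells, and E6.5 gave 156 epiblast-like cells, 25 cells like the primitive streak and 37 like endoderm. The remaining 32 E6.5 cells, with a median of 5010 genes, had no list of class markers above the average of E6.5 cells and were left unnamed. Levels below are CPM, counts of the summed cells of 1 class in 1 embryo scaled to 1000000 counts with TMM factors, and the embryo is the replicate. Of the 5 endoderm-like E5.5 cells of embryo 7, which gave the only sum of that class, all came from wells titled as visceral endoderm. The streak-like class also gave a single sum, since 24 of its 25 cells came from embryo 2 without a plate name. Summed endoderm markers lay between 17806 and 28775 CPM in PrE-like and between 14901 and 40377 CPM in E6.5 endoderm-like sums, against 1590 to 3849 in E4.5, 679 to 1005 in E5.5 and 852 to 4934 in E6.5 epiblast-like sums.

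Keratin 8 (type II) and keratin 18 (type I) are obligate partners: a filament is built from type I and type II chains together, and these are the earliest keratins of the embryo. Keratin 19 is a further type I keratin of simple epithelia. Claudins span the membrane and set which ions pass between neighbouring cells. Occludin is a second kind of membrane protein of the same junction, and Tjp1 encodes ZO-1, which ties claudins and occludin to actin beneath the membrane. Trophectoderm, primitive and visceral endoderm and the postimplantation epiblast are epithelia, whereas the inner cell mass is not, and cells that leave through the primitive streak lose their epithelial form.

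Krt8 (ENSMUSG00000049382.10) lies at chr15:101996698-102004482 on the minus strand of GRCm38, and Krt18 (ENSMUSG00000023043.7) at chr15:102028180-102032027 on the plus strand, 23698 bases away. The other 6 genes are Krt19 (chr11:100140810-100148665, minus), Cldn7 (chr11:69964779-69967885, plus), Cldn4 (chr5:134945119-134946934, minus), Cldn6 (chr17:23679249-23682446, plus), Tjp1 (chr7:65296165-65527781, minus) and Ocln (chr13:100496507-100552718, minus). Krt8 overlaps Gm36026, a long non-coding RNA on the opposite strand with no row in the table, and the counting is not stated to use strand, so reads of the pair cannot be told apart. Tjp1 overlaps 3 annotated genes without a row, Gm44794 and Gm44792 on its own strand and Gm44795 on the other. Stretches just upstream of the annotated starts are shown for the keratin pair, which was detected together in many cells, and for the 2 claudins whose embryo sums did not overlap between the E4.5 lineages, Cldn4 lower and Cldn6 higher in PrE-like cells. They are from RefSeq on GRCm38.p6, 5′ to 3′ on the strand of the gene. Capitals mark 3 motifs that were searched on both strands: the AP-2 site GCCNNNGGC, the GC box GGGCGG and the E-box CAGGTG.
Krt8, chr15:102004483-102004592, minus strand: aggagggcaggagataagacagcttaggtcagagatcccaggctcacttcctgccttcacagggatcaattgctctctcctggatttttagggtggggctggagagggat
Krt18, chr15:102027966-102028179, plus strand: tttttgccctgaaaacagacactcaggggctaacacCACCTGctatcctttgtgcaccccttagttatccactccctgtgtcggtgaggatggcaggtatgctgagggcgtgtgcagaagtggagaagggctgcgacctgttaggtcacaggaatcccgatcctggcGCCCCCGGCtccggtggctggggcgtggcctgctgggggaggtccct
Cldn4, chr5:134946935-134947184, minus strand: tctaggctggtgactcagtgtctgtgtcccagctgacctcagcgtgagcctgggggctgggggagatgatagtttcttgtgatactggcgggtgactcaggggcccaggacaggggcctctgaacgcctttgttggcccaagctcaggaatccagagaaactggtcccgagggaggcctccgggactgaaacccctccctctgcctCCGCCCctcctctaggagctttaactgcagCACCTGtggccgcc
Cldn6, chr17:23679115-23679248, plus strand: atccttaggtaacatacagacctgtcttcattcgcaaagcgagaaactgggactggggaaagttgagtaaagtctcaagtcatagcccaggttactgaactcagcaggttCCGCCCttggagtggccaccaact
The Krt18 stretch holds an AP-2 match and an E-box, the Cldn4 stretch a GC box and an E-box, the Cldn6 stretch a GC box, and the Krt8 stretch none of the 3, and no printed match overlaps another. Over the whole windows of 300 bases (250 before and 50 after a start), 6 of the 7 members with a RefSeq entry held CAGGTG in at least 1 window, and some of these matches lie inside an annotated exon and are not shown. Among 32851 promoter windows of mouse genes, 20.2% held CAGGTG, 16.6% the AP-2 letters and 35.7% the GC box. Cldn7 and Ocln have 2 windows each, and a match describes letters, not a bound site.

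Krt8 was present at E3.5, not detected in E4.5 epiblast-like cells and highest in the endoderm of later stages. In the E3.5 embryos, Krt8 stood at 719 CPM in embryo 2 and 494 in embryo 4 of plate P8 and between 34.5 and 169 in the other 8 groups of cells (193 ± 227 CPM, SD, n = 10). The E4.5 epiblast-like class had no Krt8 count in any of the 5 embryos. The 23 cells together held 15434297 counts, so 3 counts would have been 0.191 CPM, and 0 of 23 cells with Krt8 allows a share of detection of up to 13% (3 of 23 cells, with an exact 95% limit of 14.8%). In PrE-like cells of the same 5 embryos it was 4.61, 15.0, 58.1, 6.58 and 23.8 CPM in embryos 1 to 5, so that every PrE-like sum lay above every epiblast-like sum and all but 1 lay below the lowest E3.5 value.

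**Figure D1:**
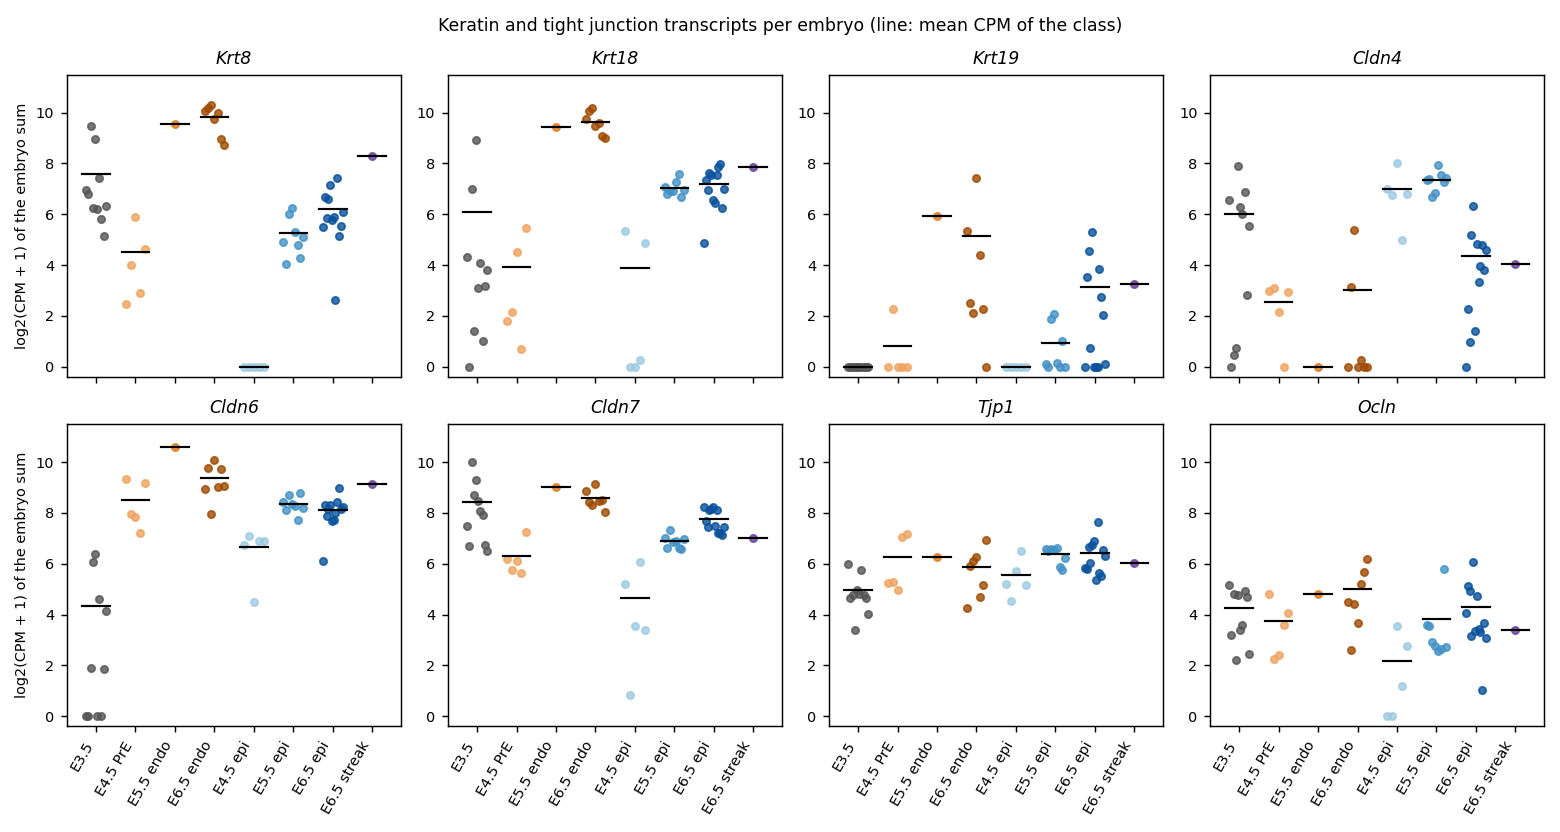
Each panel shows 1 gene, each point the sum of 1 class in 1 embryo as log2(CPM + 1), and each line the mean CPM of the class. Krt8 is at 0 in all 5 E4.5 epiblast-like sums and between 425 and 1259 CPM in the 7 E6.5 endoderm-like sums, Cldn4 stands high in E4.5 and E5.5 epiblast-like sums, and Cldn6 is low at E3.5.

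After implantation Krt8 was found again in the epiblast. The 8 E5.5 epiblast-like sums ran from 15.7 to 74.5 CPM (37.5 ± 21.0, SD, n = 8), and the 12 E6.5 epiblast-like sums from 5.15 to 170 with a median of 57.6 (72.8 ± 46.7, SD, n = 12). The E5.5 endoderm-like sum stood at 742 CPM. In E6.5 endoderm-like cells Krt8 was 1080, 1174, 1259, 859 and 1001 CPM in the 5 embryos of plates P1 to P3, and 502 and 425 CPM in the 2 embryos titled E6.75, which have no plate name (900 ± 325, SD, n = 7). All 7 lay above all 12 epiblast-like sums. The primitive streak-like sum was 316 CPM, between the epiblast-like and the endoderm-like ranges.

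Krt18 had a different course before implantation. At E3.5 it reached 482 CPM in embryo 4 and 126 in embryo 2 of plate P8, and lay between 0 and 18.8 in the other 8 groups (67.4 ± 151, SD, n = 10). E4.5 epiblast-like cells had 39.9, 0, 0, 0.217 and 28.0 CPM in embryos 1 to 5, and PrE-like cells had 2.45, 3.40, 22.0, 0.641 and 42.9, so the lineages overlapped. From E5.5 the gene was found in all sums: 103 to 191 CPM in E5.5 epiblast-like (132 ± 28.4, SD, n = 8), 28.3 to 251 in E6.5 epiblast-like (145 ± 67.7, SD, n = 12) and 512 to 1151 in E6.5 endoderm-like cells (800 ± 242, SD, n = 7). The E5.5 endoderm-like sum held 692 CPM and the streak-like sum 234.

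Krt19 was rare. It had no count in any of the 99 E3.5 cells, which allows a share of detection of up to 3.03% (3 of 99 cells, with an exact 95% limit of 3.66%), and none in the 23 E4.5 epiblast-like cells. A single PrE-like cell held it, in embryo 2. In E5.5 epiblast-like sums it ran up to 3.23 CPM and in E6.5 epiblast-like sums up to 38.3. The E6.5 endoderm-like sums ranged from 0 to 170 CPM with a median of 4.73, and the E5.5 endoderm-like sum held 60.6 CPM.

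Keratin transcripts were also counted cell by cell, with 10 CPM as the limit for a cell to hold a transcript (intervals are exact 95% binomial and cover counting error only). Median totals per cell ranged from 553935 at E3.5 to 1177355 in the 8 E5.5 endoderm-like cells, so detection does not rest on equal depth. Krt8 was held by 62.6% of E3.5 cells (interval 52.3 to 72.1), 29.3% of PrE-like (19.7 to 40.4), 47.1% of E5.5 epiblast-like (40.9 to 53.4) and 72.4% of E6.5 epiblast-like cells (64.7 to 79.3). All 25 streak-like and all 37 E6.5 endoderm-like cells held it. Krt18 was held by 14.1% of E3.5 cells (7.95 to 22.6) and by 86.5% of E5.5 epiblast-like cells (81.7 to 90.4). Wells with 2 cells held Krt8 more often: 45.2% of 31 such PrE-like wells against 19.6% of 51 single cells, and 62.1% of 66 against 42.0% of 193 in the E5.5 epiblast-like class.

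Cells with just 1 of the partner keratins mostly held Krt8 at E3.5 and Krt18 in the epiblast after implantation. Of the 99 E3.5 cells, 13 held both, 49 held Krt8 alone and 1 held Krt18 alone. Among PrE-like cells 12 held both, 12 Krt8 alone and 8 Krt18 alone, and 6 of the 23 E4.5 epiblast-like cells held Krt18 with no Krt8. In E5.5 epiblast-like cells the order was the other way round, with 112 cells holding both, 112 Krt18 alone and 10 Krt8 alone. At E6.5, 104 epiblast-like cells held both and 34 Krt18 alone. No streak-like or E6.5 endoderm-like cell held just 1 of the pair. Within the E6.5 endoderm-like class the levels of the pair rose together from cell to cell (Pearson r = 0.70 of log2(CPM + 1), 37 cells), within E5.5 epiblast-like cells hardly (r = 0.14, 259 cells). Cells of 1 library batch share depth and embryo, and these values are a description.

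**Figure D2:**
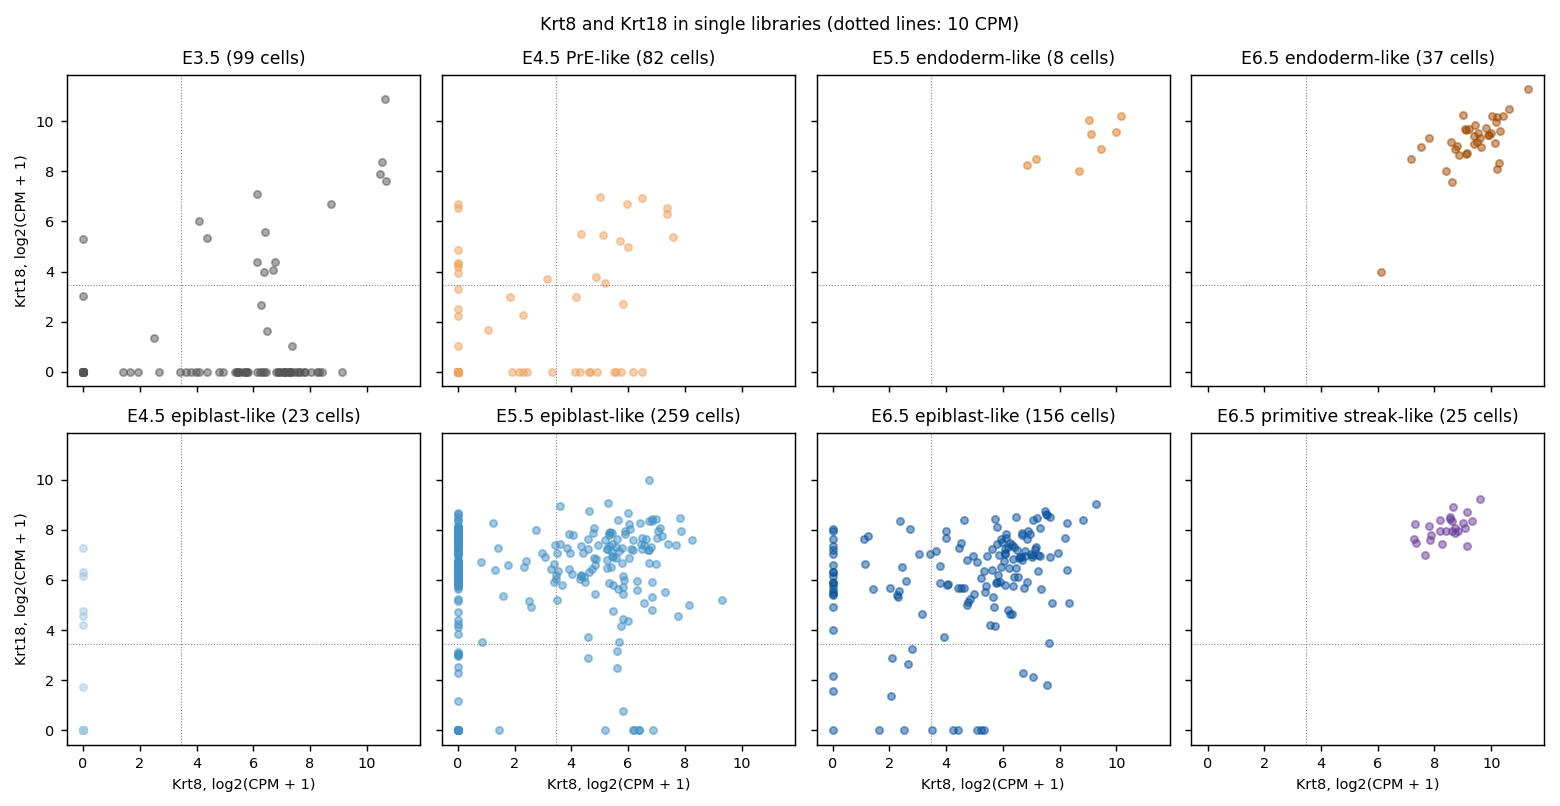
Each point is 1 library, with Krt8 on the x axis and Krt18 on the y axis as log2(CPM + 1), 1 panel for each class, and dotted lines at 10 CPM. E3.5 cells lie mostly along the x axis (49 with Krt8 alone), E5.5 epiblast-like cells along the y axis and in the upper right (112 with Krt18 alone, 112 with both), and all 37 E6.5 endoderm-like cells in the upper right.

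The 4 E3.5 cells with the most Krt8, singled out after their values were seen, stood at 1420 to 1642 CPM where the next cell had 562. All of them also held Krt18 (194 to 1885 CPM) and at least 1 of Cdx2, Gata3 and Elf5, transcription factor genes of trophectoderm and its descendants. The cell of embryo 4 held all 3 (459, 176 and 111 CPM) together with Cldn7 at 2026, Cldn4 at 417 and Cldn6 at 324 CPM. The cell of embryo 2 held Elf5 at 17.5 and Cldn7 at 1819 CPM, with Gata6 at 531. Both cells of embryo 6 held Gata3 (139 and 296 CPM) but Cldn7 at only 100 and 70.8 CPM. In all, 10 of the 99 E3.5 cells held Cdx2, Gata3 or Elf5 at 10 CPM or more. Among the 21 trophectoderm and extra-embryonic markers with a row, Tex19.1 alone averaged 562 CPM over E3.5 sums. All 21 summed to 538 to 2127 CPM over E3.5 sums, with embryo 4 highest, against 440 to 678 in E4.5 epiblast-like and 799 to 1536 in PrE-like sums. Apart from such cells Krt8 was widespread at E3.5: of the 62 cells with Krt8, 3 held Cdx2, 5 held Gata3 and 2 held Elf5, while 54 held Gata6 and 56 held Nanog. Of the 37 cells without Krt8, 33 held Gata6 and 33 Nanog.

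**Figure D3:**
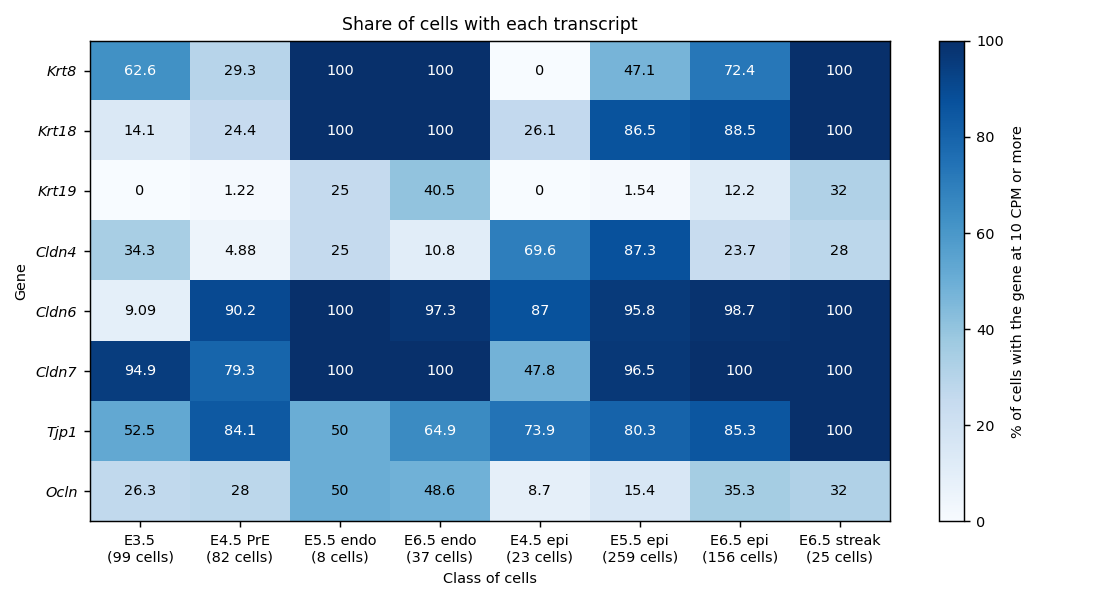
Rows are the 8 genes, columns the classes with their number of cells, and each cell of the plot gives the percentage of cells with the gene at 10 CPM or more. Cldn7 is found in 94.9% of E3.5 cells and Cldn6 in 9.09%, and Cldn4 falls from 87.3% of E5.5 to 23.7% of E6.5 epiblast-like cells.

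Each claudin had its own course. Cldn7 was the claudin most widely held at E3.5, in 94.9% of cells, and lay between 90.7 and 1018 CPM with a median of 257 (341 ± 291, SD, n = 10). The E4.5 epiblast-like sums were 35.7, 0.794, 10.9, 65.5 and 9.55 CPM in embryos 1 to 5, all below the lowest E3.5 sum. PrE-like cells had 72.6, 52.5, 68.2, 48.9 and 151 CPM. It stood at 94.9 to 161 CPM in E5.5 epiblast-like (117 ± 22.1, SD, n = 8), 139 to 301 in E6.5 epiblast-like (217 ± 65.2, SD, n = 12) and 264 to 567 in E6.5 endoderm-like cells (382 ± 102, SD, n = 7). The E5.5 endoderm-like sum had 520 CPM and the streak-like sum 129, below all 12 epiblast-like sums of its stage.

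Cldn6 was nearly absent at E3.5 and present in all later classes. At E3.5 the sums ran from 0 to 82.9 CPM with a median of 2.69 (19.5 ± 30.4, SD, n = 10) and 9.09% of cells held it. E4.5 epiblast-like cells had 105, 137, 21.5, 118 and 119 CPM in embryos 1 to 5 and PrE-like cells 644, 245, 230, 146 and 577, so the lineages did not overlap. E5.5 epiblast-like sums held 209 to 446 CPM (328 ± 76.2, SD, n = 8), E6.5 epiblast-like sums 68.0 to 503 (276 ± 102, SD, n = 12) and E6.5 endoderm-like sums 249 to 1084 (660 ± 288, SD, n = 7). The E5.5 endoderm-like sum stood at 1540 CPM, and the streak-like sum at 566, next to 503 in the epiblast-like cells of the same embryo, the highest of the 12.

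Cldn4 was high in the E4.5 and E5.5 epiblast and low in the endoderm sums. E4.5 epiblast-like cells had 126, 106, 258, 30.6 and 111 CPM in embryos 1 to 5 where PrE-like cells of the same embryos had 6.92, 7.61, 3.41, 0 and 6.62. E5.5 epiblast-like sums held 101 to 248 CPM (163 ± 44.9, SD, n = 8). E6.5 epiblast-like sums fell between 0 and 79.1 with a median of 14.0 (19.6 ± 22.2, SD, n = 12), none reaching the lowest E5.5 sum. In the endoderm sums it stayed low, at 0 to 41.3 CPM in the 7 E6.5 sums with 4 of them at 0, and it had no count in the E5.5 endoderm-like sum of 5 cells. Of the 8 cells of that class in all, 2 held Cldn4, at up to 393 CPM. At E3.5 it ranged from 0 to 241 CPM with a median of 53.9, and 34.3% of cells held it, about as often with Krt8 (33.9% of 62 cells) as without (35.1% of 37).

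Tjp1 and Ocln varied less between classes. Tjp1 had a mean of 30.0 ± 16.3 CPM at E3.5 (SD, n = 10) and of 46.7 ± 25.8 in E4.5 epiblast-like (n = 5), 76.0 ± 56.2 in PrE-like (n = 5), 81.7 ± 17.9 in E5.5 epiblast-like (n = 8), 83.9 ± 45.2 in E6.5 epiblast-like (n = 12) and 57.6 ± 35.8 in E6.5 endoderm-like sums (n = 7). PrE-like embryos split into 36.7, 38.2 and 30.2 CPM in embryos 1 to 3 and 133 and 142 in embryos 4 and 5. Ocln was low throughout, from 3.53 ± 4.6 CPM in E4.5 epiblast-like cells (n = 5) to 31.1 ± 23.7 in E6.5 endoderm-like cells (n = 7), and 8.70% to 50% of cells of a class held it. The neighbouring classes in either order overlapped.

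Since reads per transcript grow with its length, levels of different genes are compared only per kilobase of exon. On that scale the mean E3.5 levels were 175 CPM per kilobase for Cldn7, 98.5 for Krt8, 46.9 for Krt18, 35.4 for Cldn4, 11.3 for Cldn6, 4.26 for Ocln and 3.84 for Tjp1. In E4.5 epiblast-like cells Cldn4 (69.5) and Cldn6 (58.3) led and Cldn7 had 12.6. In E5.5 epiblast-like cells the order of means was Cldn6 (191), Krt18 (91.5), Cldn4 (89.8), Cldn7 (60.1) and Krt8 (19.2). In E6.5 endoderm-like cells Krt18 (557), Krt8 (460), Cldn6 (384) and Cldn7 (196) led while Cldn4 had 3.88. The spread over embryos of Krt18 (168) and Krt8 (166) in the endoderm was larger than the gap between them.

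The classes were then compared with edgeR's quasi-likelihood test, fitted to all sums and all 13336 genes, with Benjamini-Hochberg adjustment over these genes. A call needed an absolute log2 fold change over 1 (over 2 between the E4.5 lineages) with an adjusted p no higher than 0.05. Comparisons that share a class share its sums and are not independent. Stages were isolated by partly different means and lie largely on their own plates, or on plates whose names cannot be matched between stages. A difference between stages therefore cannot be told apart from plate or isolation. At E3.5 Krt8 averaged 294 ± 296 CPM on plate P8 (SD, n = 5) and 84.2 ± 59.1 on P9 (n = 4). Krt18 averaged 124 ± 208 and 9.47 ± 6.51, and Cldn7 503 ± 344 and 178 ± 92.3. Tjp1 and Ocln were lower on P8. Where embryo sums are said not to overlap, the share of all genes without overlap is not given, so this describes the member alone. In bulk sums of cells, fewer cells with a transcript and less of it per cell cannot be told apart, and the cell shares above are given for that. Where a class had no count, a least fold sets the mean of the other class against 3 counts pooled over that class. This floor covers the counting of reads only, not which cells or embryos were sampled, and is no limit on the true difference.

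From E3.5 to the E4.5 epiblast-like class, 3 of 8 members were called, where 20.8% of all genes were. In these classes Krt8 fell from a mean of 193 CPM (median 93.6) to no count (adjusted p = 7.89e-10), at least 1009-fold against the floor of 3 counts. Over the main and alternative settings its fitted log2 fold change ran from -14.11 to -7.63, so the bound is that of the main classes only. Cldn7 fell by 3.77 on the log2 scale (SE 0.54, adjusted p = 6.92e-07), and Cldn6 rose by 2.37 (SE 0.70, adjusted p = 0.0104). Krt18 (log2 fold change -2.28, SE 1.04, adjusted p = 0.106) and Ocln (-2.32, SE 0.91, adjusted p = 0.0575) did not pass. The Cldn6 call was lost with single cells only (1.85, adjusted p = 0.0646). With the E3.5 cells that held Cdx2, Gata3 or Elf5 left out, Krt18 turned to 0.99 (adjusted p = 0.442), Cldn6 stood at 3.90 (adjusted p = 4.94e-05) and Cldn7 at -2.74 (adjusted p = 1.40e-05). Such cells were kept in the E4.5 epiblast-like class, where they were 4 of 23 (17.4%, against 10.1% at E3.5). Of the trophectoderm and extra-embryonic markers 3 of 19 fell and 1 rose (median log2 fold change -1.13, against 0.00 over all genes), and their part was not tested beyond leaving out those E3.5 cells. Of other tight junction genes 4 of 28 tested rose and 3 fell: Amotl2, an angiomotin family member, rose (log2 fold change 5.80, adjusted p = 8.49e-08). Polarity genes Pard3 (-2.30, adjusted p = 0.00163) and Prkci (-1.77, adjusted p = 0.00135) fell. Of 26 epithelial regulators and adherens junction genes 6 fell and 2 rose, and Elf3, an epithelial ETS factor, fell (-3.93, adjusted p = 0.00345). Tfap2c, encoding AP-2 gamma, had no count in E4.5 epiblast-like cells, at least 652-fold lower against the floor of 3 counts (adjusted p = 2.38e-04). Grhl2, a grainyhead factor of epithelia, rose (2.54, adjusted p = 0.00786).

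From E3.5 to the PrE-like class, 6 of 8 members were called, where 18.6% of all genes were. Krt8 fell by 3.16 (SE 0.67, adjusted p = 4.98e-04), Cldn7 by 2.11 (SE 0.49, adjusted p = 0.00122) and Cldn4 by 3.72 (SE 1.33, adjusted p = 0.0381) on the log2 scale. Cldn6 rose by 4.25 (SE 0.72, adjusted p = 1.44e-05), with every PrE-like sum above every E3.5 sum, and Tjp1 by 1.34 (SE 0.42, adjusted p = 0.0162). Krt19 passed the limits, at no less than 14.7-fold against the floor of 3 counts (adjusted p = 0.0437). It was held by 1 cell of 1 embryo, and without that embryo both classes are at 0. With the 10 E3.5 cells that held Cdx2, Gata3 or Elf5 left out, which leaves 7 E3.5 groups and was chosen after seeing the data, Krt8 (-2.08, adjusted p = 0.00608), Cldn4 (-3.97, adjusted p = 0.0255) and Cldn6 (5.75, adjusted p = 1.08e-07) were still called, and Cldn7 (-1.12, adjusted p = 0.0518), Tjp1 (1.24, adjusted p = 0.0661) and Krt19 were not. Krt18, not called with all cells (-2.23, adjusted p = 0.120), then turned to 0.98. Cldn4 lost its call when any 1 of the 5 E4.5 embryos was left out (adjusted p 0.0629 to 0.0878), and Tjp1 without embryo 4 or 5. Other members of the filament list moved both ways (5 of 17 rose, 3 fell), led by vimentin, Vim, the filament protein of mesenchymal cells (log2 fold change 4.79, adjusted p = 0.00119), and Plec, a plakin that ties filaments to junctions (2.99, adjusted p = 0.0277). Vim also rose from E3.5 to the E4.5 epiblast-like class (3.97, adjusted p = 0.00519). Amotl2 rose in PrE-like cells as well (6.28, adjusted p = 1.70e-08), and Tfap2c had no count in them either (adjusted p = 5.60e-05). The adhesion gene Epcam (-2.77, adjusted p = 3.27e-10) and the junction adhesion genes Jam2 (-5.25, adjusted p = 0.00127) and F11r (-1.99, adjusted p = 8.02e-06) fell, and Cgnl1, encoding paracingulin, rose (5.60, adjusted p = 1.53e-05).

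**Figure D4:**
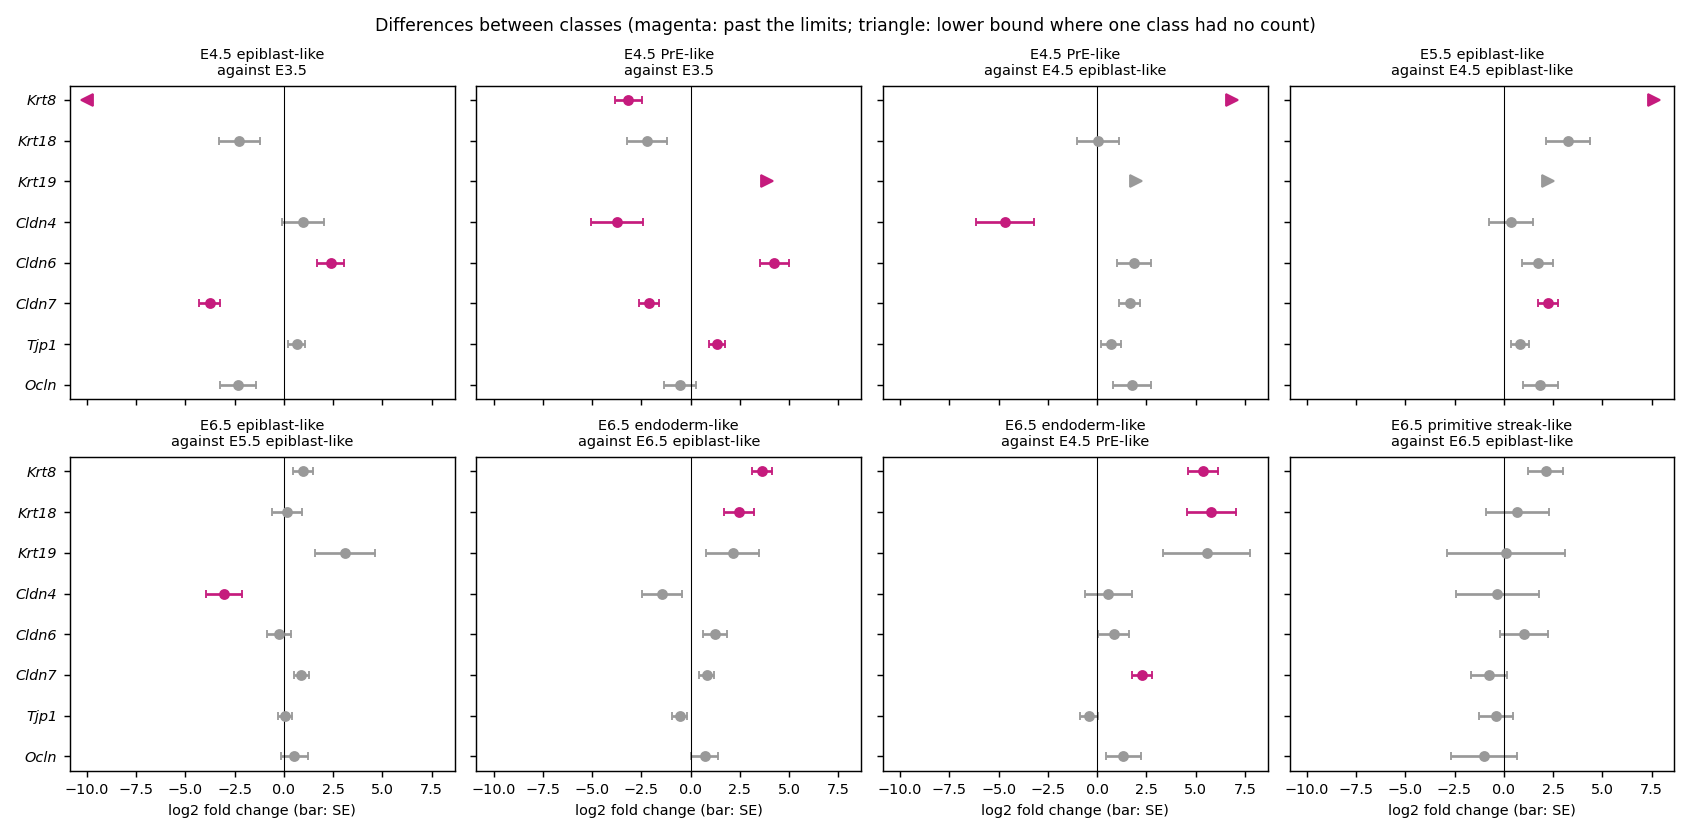
Points give the log2 fold change of each gene between the classes named above a panel with its standard error. Triangles give a bound against the floor of 3 counts where a class had no count, and magenta marks genes past the limits. Krt8 is past the limits in 6 of the 8 panels, Ocln in none.

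Between the E4.5 lineages 2 of 8 members were called, where 5.26% of all genes were. Krt8 was higher in PrE-like than in epiblast-like cells (adjusted p = 1.10e-05), at least 113-fold against the floor of 3 counts. With 0 of 23 epiblast-like cells holding Krt8, a share of up to 13% stays possible, so the true fold may be smaller. Cldn4 was lower in PrE-like cells by a log2 fold change of -4.69 (SE 1.46, adjusted p = 0.0386). Cldn7 was higher by 1.66 (SE 0.53, adjusted p = 0.0423), which is under the limit of 2, and Cldn6 by 1.88 (SE 0.86, adjusted p = 0.188), which did not pass. The embryo sums of Cldn6 did not overlap, a description whose share over all genes is not given. In the same embryos Krt8 and Cldn6 were higher in the PrE-like cells of 5 of 5, Cldn4 in 0 of 5, and Krt18, Cldn7, Tjp1 and Ocln in 4 of 5. With the embryo as a block, Cldn4 stood at -5.16 (SE 0.84, adjusted p = 0.00329) and Cldn6 at 1.87 (adjusted p = 0.0190), under the limit, and 2 members were called. Under another clustering (Ward) the epiblast-like class took in 1 cell with Krt8, and the Krt8 fold change was 4.57 (adjusted p = 0.00355). The call of Cldn4 without the block was lost without any 1 of the 5 embryos (adjusted p 0.0823 to 0.135). Sparc, a matrix protein gene on the mesenchymal list and strong in parietal and primitive endoderm, was higher in PrE-like cells (3.21, adjusted p = 2.49e-04), and no epithelial regulator was called. The mesenchymal list was among the genes that were clustered.

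From the E4.5 to the E5.5 epiblast-like class 2 of 8 members were called, where 5.81% of all genes were. Krt8 rose in these classes (adjusted p = 1.14e-06), at least 197-fold against the floor of 3 counts. Its fitted log2 fold changes were 5.25 to 12.39 over the main and alternative settings. Cldn7 rose by 2.23 on the log2 scale (SE 0.51, adjusted p = 0.00346). Krt18 (3.25, SE 1.11, adjusted p = 0.0641) and Cldn6 (1.71, SE 0.80, adjusted p = 0.210) missed the limit. For both, all 8 E5.5 sums lay above all 5 E4.5 sums, a description whose share over all genes is not given. Without E4.5 embryo 1 Krt18 reached 4.13 (adjusted p = 0.0451), and in a fit of these 2 classes alone both were called (adjusted p = 0.0107 and 0.00114). With single cells only, Cldn7 was 1.62 (adjusted p = 0.0662). Of the other tight junction genes 1 of 28 rose and 1 fell, Jam2 (-7.89, adjusted p = 7.80e-06), and of the epithelial regulators Klf5 (-5.14, adjusted p = 2.48e-06) and Tead4 (-5.49, adjusted p = 0.00519), both early blastocyst factors, fell.

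From the E5.5 to the E6.5 epiblast-like class 1 of 8 members was called, where 8.23% of all genes were. Cldn4 fell by 3.05 on the log2 scale (SE 0.91, adjusted p = 0.0209), and its 12 E6.5 sums lay below all 8 E5.5 sums. Within the 8 E6.5 embryos of plates P1 to P3 Cldn4 averaged 19.7 CPM and within the 4 without a plate name 19.5, and against the latter alone the log2 fold change was -3.06 (adjusted p = 0.164). Cldn7 (0.89, SE 0.38, adjusted p = 0.129) and Krt19 (3.12, SE 1.52, adjusted p = 0.207) did not pass. Cldn7 differed by plate at E6.5, with 249 ± 54.3 CPM on plates P1 to P3 (n = 8) and 152 ± 14.5 without a plate name (n = 4). Of the endoderm markers 17 of 25 were higher and 1 was lower in E6.5 than in E5.5 epiblast-like cells, and their part in these values was not tested. Lama5, a laminin chain of epithelial basement membranes, fell (-1.73, adjusted p = 0.00551), and Dsg2, a desmosomal cadherin (1.72, adjusted p = 0.0130), and Cdh2, N-cadherin (2.61, adjusted p = 0.00947), rose.

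At E6.5 the endoderm-like class was higher than the epiblast-like class in both partner keratins, and 2 of 8 members were called, where 14.8% of all genes were. Krt8 was higher by 3.62 (SE 0.50, adjusted p = 1.33e-06) and Krt18 by 2.46 (SE 0.77, adjusted p = 0.0226) on the log2 scale, with no overlap between embryos. Cldn6 (1.25, SE 0.61, adjusted p = 0.150) and Cldn7 (0.82, SE 0.37, adjusted p = 0.124) did not pass, though Cldn6 was higher in 6 and Cldn7 in 7 of the 7 embryos that held both classes. With the embryo as a block, fitted to these 7 embryos, Krt8 stood at 3.69 (SE 0.24, adjusted p = 5.28e-05), Krt18 at 2.97 (SE 0.30, adjusted p = 3.79e-04) and Cldn6 at 1.51 (SE 0.32, adjusted p = 0.0229), so that 3 members were called. Within plates P1 to P3 Krt8 averaged 1075 ± 155 CPM in endoderm-like (n = 5) and 69.7 ± 41.6 in epiblast-like sums (n = 8). Without a plate name it was 463 in endoderm-like (n = 2) and 79.1 ± 62.2 in epiblast-like sums (n = 4). The Krt18 call was lost in each of these subsets, at a log2 fold change of 2.74 on plates P1 to P3 (adjusted p = 0.0652) and 1.56 without a plate name (adjusted p = 0.664), and that of Krt8 without a plate name (2.48, adjusted p = 0.160). Among single genes of the other lists, Dsg2 (2.0, adjusted p = 0.00248), Cgn, encoding cingulin (1.85, adjusted p = 0.0217), Mpp5, encoding the polarity scaffold Pals1 (1.88, adjusted p = 0.0160), Ezr, encoding ezrin of microvilli (1.18, adjusted p = 0.00329), and Ctnna1, encoding alpha-catenin (1.19, adjusted p = 8.35e-05), were higher in endoderm-like cells. Nes, encoding the filament protein nestin, was lower (-3.88, adjusted p = 0.0178). Of the epithelial regulators and adherens junction genes 5 of 26 were higher and 0 lower (median log2 fold change 0.39, against -0.13 over all genes). The other tight junction genes, the list of Cgn and Mpp5, had 3 of 28 higher and 2 lower (median 0.07). The other filament and desmosome genes, the list of Dsg2 and Nes, had 1 of 17 higher and 1 lower. Trophectoderm and extra-embryonic markers summed to 898 to 3000 CPM in these endoderm-like sums and 179 to 1025 in epiblast-like sums, and 11 of 37 against 17 of 156 cells held Cdx2, Gata3 or Elf5. Of these markers Slc2a3 averaged 1052 and Eomes 245 CPM in the endoderm-like sums, against 5.20 for Cdx2, 5.55 for Gata3 and 2.01 for Elf5. The part of these transcripts in the keratin levels was not tested.

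**Figure D5:**
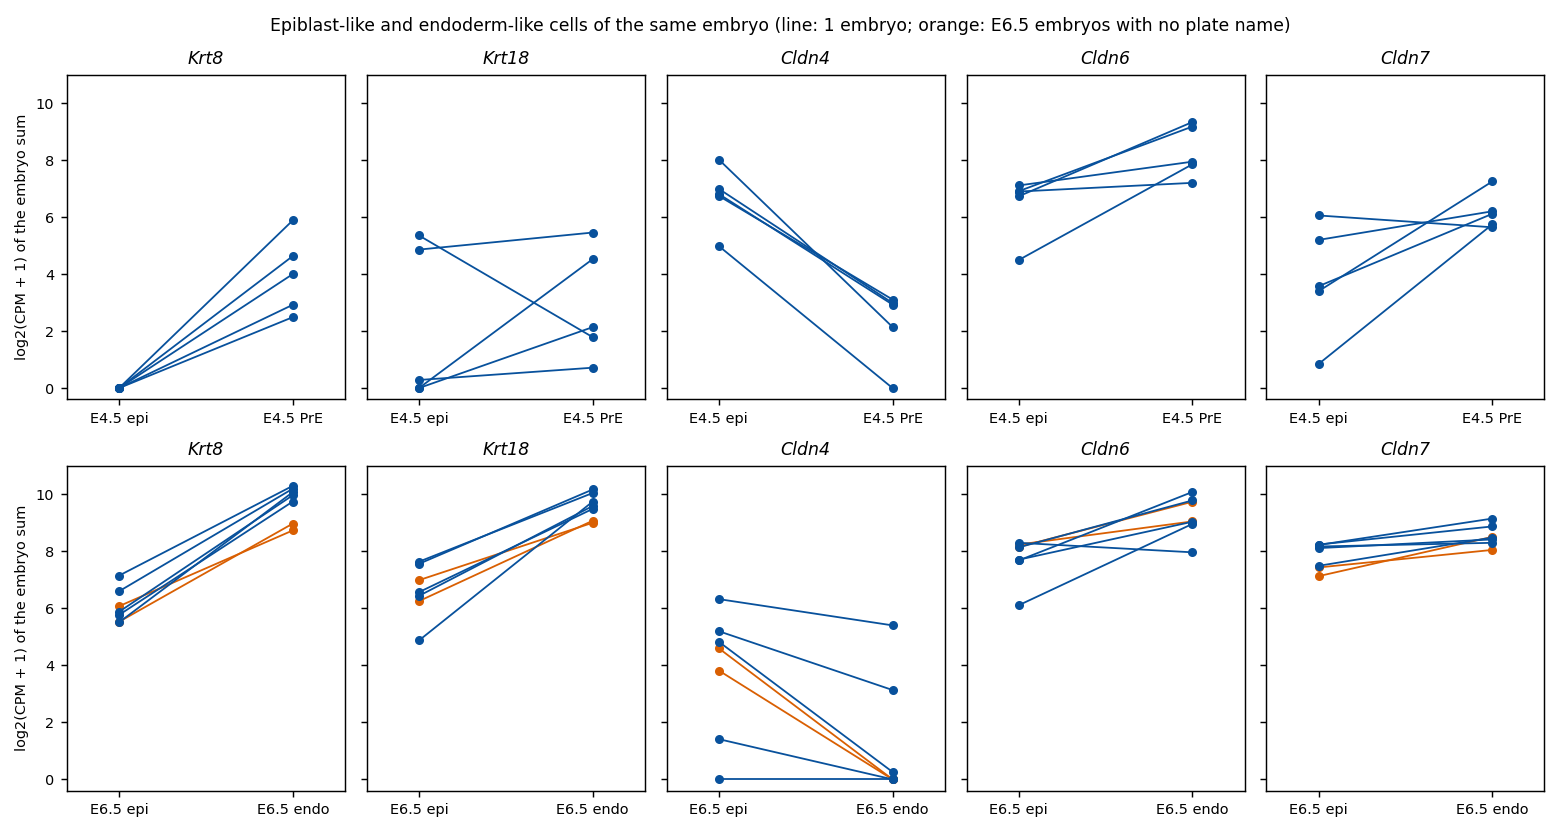
Lines join the epiblast-like and the endoderm-like sum of 1 embryo, as log2(CPM + 1), for 5 genes at E4.5 (upper row, 5 embryos) and E6.5 (lower row, 7 embryos; orange, the 2 embryos without a plate name). Krt8 is higher in the endoderm of all embryos at both stages and Cldn4 in that of none.

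From E4.5 to E6.5 the endoderm rose in 3 of 8 members, where 12.7% of all genes were called. Krt8 rose by 5.38 (SE 0.77, adjusted p = 2.74e-06), Krt18 by 5.80 (SE 1.26, adjusted p = 0.00132) and Cldn7 by 2.28 (SE 0.51, adjusted p = 0.00174) on the log2 scale, and in all 3 the 7 E6.5 sums lay above the 5 E4.5 sums. Krt19 (5.56, SE 2.21, adjusted p = 0.0891) did not pass, though it did in DESeq2 (adjusted p = 0.0346). Of the trophectoderm and extra-embryonic markers 5 of 19 rose and 1 fell (median 1.13, against -0.08 over all genes), and 11 of 37 against 1 of 82 cells held Cdx2, Gata3 or Elf5, whose part was not tested. Against the 2 embryos without a plate name alone, Krt8 was called and Krt18 (5.18, adjusted p = 0.0526) and Cldn7 (1.98, adjusted p = 0.117) were not. Of the epithelial regulators 8 of 26 rose and 1 fell, with Esrp1, an epithelial splicing factor (3.63, adjusted p = 0.0142), Rab25, an epithelial trafficking GTPase (5.5, adjusted p = 0.0113), and Ezr (2.09, adjusted p = 1.49e-04) rising and Klf5 (-4.27, adjusted p = 5.56e-05) falling. F11r (1.65, adjusted p = 5.76e-04) and Mpp5 (3.24, adjusted p = 0.00447) rose, and Sparc fell (-3.25, adjusted p = 1.74e-05). Cdh2, without a count in PrE-like cells, was at least 1137-fold higher against the floor of 3 counts (adjusted p = 1.77e-07).

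The lineage difference itself was compared between stages, as the endoderm-like to epiblast-like fold change at E6.5 less that at E4.5. Of the 8 members 1 was called, where 3.96% of all genes were. For Krt8 the contrast was -7.19 (SE 2.12, adjusted p = 0.0425), and it rests on the E4.5 class with no Krt8 count, so its size is set by the fit and is no bound. Leaving out any 1 E4.5 embryo ended this call (-7.54 to -6.49, adjusted p 0.0542 to 0.127), as did 8 other settings, in which it ranged from -8.54 to -2.32. DESeq2 kept it (-4.69, adjusted p = 0.00623). For Cldn4 it was 3.25 (SE 1.61, adjusted p = 0.289).

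In the primitive streak-like class, 0 of 8 members were called against the epiblast-like class, where 0.015% of all genes were (2 genes). The class gave 1 sum, which was assumed to vary like the others. In edgeR's test 1 member, Krt8, had an unadjusted p under 0.05 (log2 fold change 2.12, adjusted p = 1), which with 1 sum, nearly all of it 1 embryo, says nothing of other embryos. Against the 12 epiblast-like sums the streak-like sum was above all in Krt8 (316 CPM) and Cldn6 (566), and below all in Cldn7 (129). The epiblast-like sum of the same embryo, from 4 cells, had 34.5 CPM of Krt8, 503 of Cldn6, the highest of the 12, and 149 of Cldn7. Of its 25 cells 23 held Mesp1, a factor of nascent mesoderm, and 9 held Cdx2, Gata3 or Elf5 at 10 CPM or more. On the 8 mesenchymal genes tested the median log2 fold change was 2.13, against -0.06 over all genes, with none called.

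Since the streak-like class is nearly all 1 embryo, cells were also split by T (Brachyury), the streak marker, within 4 E6.5 embryos outside the endoderm-like class, with 52 cells at 10 CPM or more and 66 without a T count. Unnamed cells were part of this split, so cells without T are not the epiblast-like class alone. Krt8 was higher with T only in embryo 2 without a plate name, the source of the streak-like cells, at 350 against 94.6 CPM of the summed counts. In the other embryos it was 80.8 against 90.3, 49.2 against 50.6 and 68.2 against 76.9 CPM. Cldn7 was lower with T in 4 of 4 embryos, at 147 against 199, 131 against 178, 107 against 167 and 178 against 194 CPM. Cldn4 was lower in 4 of 4 as well, at 0.677 against 5.02, 18.4 against 23.9, 0.836 against 15.5 and 20.7 against 31.8 CPM. Cldn6 was lower with T in 4 of 4 by small margins, at 594 against 608 CPM in embryo 2 without a plate name and 245 against 245, 302 against 315 and 324 against 332 in the others. With T as the definition of the streak, edgeR's test set 4 sums against 13 without pairing by embryo. It gave log2 fold changes of 0.20 (SE 0.61) for Krt8, -0.94 (SE 0.50) for Cldn7, -0.49 (SE 1.17) for Cldn4 and 0.06 (SE 0.74) for Cldn6. None of these was called, and the share of all genes lower with T in 4 of 4 embryos is not given.

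Within the E6.5 endoderm-like class, cells with Cer1, a secreted inhibitor made by the anterior visceral endoderm, were compared with the rest of the same embryo. Krt8 was higher with Cer1 in 4 of 4 embryos, at 1035 against 1021, 2535 against 659, 730 against 387 and 565 against 405 CPM, from 5 cells against 11. Krt18 was higher in 3 of 4. These are single cells of few embryos and were not tested.

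The related gene lists had calls in both directions, to be read against the share of all genes given with each comparison. Of 28 tested tight junction genes besides the members, 3 rose and 2 fell from E6.5 epiblast-like to endoderm-like cells, and 3 rose and 1 fell from E4.5 to E6.5 endoderm. Their median log2 fold change from E4.5 to E5.5 epiblast-like cells was 0.71, against 0.17 over all genes and 2.04 over the members. Of 17 other filament and desmosome genes 0 were called in that comparison (median 0.22). The trophectoderm list, with 19 genes tested, fell in 6 and rose in 2 from E3.5 to PrE-like cells and rose in 5 and fell in 1 from E6.5 epiblast-like to endoderm-like cells. Of the 8 mesenchymal genes, 2 rose and 0 fell from E5.5 to E6.5 epiblast-like cells. These lists were compared by counts and medians, with no test of a list.

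Over all 49 sums, the genes closest to each member in log2(CPM + 1) were named without regard to function. Krt8 was most like 2610528J11Rik (Pearson r = 0.82), Cldn7 (0.81) and Tpm1, a tropomyosin gene (0.78), and Krt18 most like H19 (0.75), Sepp1 (0.73) and Fermt1 (0.73). Krt8 and Krt18 had r = 0.66. Cldn7 was most like Krt8 (0.81), Ublcp1 (0.77) and Phf20l1 (0.75). Cldn6 was most like Me2 (0.87), Podxl, which encodes the apical sialomucin podocalyxin (0.86), and Eno1 (0.84), and Cldn4 most like Ak1 (0.80), Pla2g10 (0.75) and AC134601.1 (0.71). Between Cldn4 and Cldn7 r was -0.40, and between Cldn4 and Cldn6 -0.15. Krt19 was most like Pkdcc (0.72), Mbp and Rbp4 (0.70 each), Tjp1 like G2e3, Rnf145 and Phf10 (0.65 each), and Ocln like Igf2r (0.61), Fbxo3 (0.59) and Rwdd4a (0.56). The 49 sums share embryos, plates and stages, so these values describe the sums and carry no test.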

How the data were processed

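Sequencing was paired-end with 100-base reads of cDNA from single cells (G&T-seq capture, Nextera XT libraries). The authors trimmed reads with Trim Galore (0.4.3 per the labels), mapped them to GRCm38 with HISAT2 (2.0.5 per the labels), kept mapping quality of at least 20, counted reads per gene in SeqMonk, and removed cells with fewer than 4000 genes, over 10% mitochondrial reads or trophoblast markers. The deposited values are raw counts, with no molecular identifiers, for 24483 gene rows on chromosomes 1 to 19.

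The 8 members and the gene lists were chosen with earlier results of these data known. Cells were clustered with steps written after SC3 (8 clusters over all cells, 5 within E6.5) without 91 member, junction, filament and epithelial genes, and classes were named from marker lists. Counts were summed per embryo and class with at least 3 cells, giving 49 sums, and tested in R 4.3.3 with edgeR 4.0.16 (TMM, filterByExpr, quasi-likelihood test, Benjamini-Hochberg adjustment), and DESeq2 1.42.0 was an alternative. The embryo is the replicate, and p-values measure the spread between embryos as labelled. The steps were tested on simulated data. Wells with 2 cells were kept and left out in an alternative. All members are named, the 3 genes most like each, and up to 4 called genes per list and comparison, those with the largest change and a mean of at least 20 CPM. Not every gene that this rule picks is reported here. Classes of 1 embryo come from the same animal, which pairs them; deviations of the pairs correlated at 0.02 to 0.10 (E4.5, 5 embryos) and 0.03 to 0.21 (E6.5, 7 embryos).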

Additional observations from a re-analysis of the deposited data

Results flagged for a closer look

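Of 37 groups of 4 to 10 embryo sums of the 8 genes, 8 had an embryo whose gap to its neighbour passed Dixon's critical value. In groups of normally distributed values the test flags about 5% by chance. CPM are skewed and hold zeros, so this rate does not apply here, and only 1 of the 8 flags is a lowest embryo. At E3.5, embryo 4 of plate P8 was highest in Krt18 (482 CPM, next 126) and in Cldn4 (241 CPM, next 116). The same embryo was highest in the summed trophectoderm markers (2127 CPM) and in Cdx2 (117 CPM), from 1 of its 4 cells. The part of these markers in its values was not tested beyond leaving the cell out.

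In PrE-like cells Krt19 was found only in embryo 2 (3.80 CPM, the other 4 at 0), and Cldn7 was highest in embryo 5 (151 CPM, next 72.6). In E4.5 epiblast-like cells Cldn6 was lowest in embryo 3 (21.5 CPM, next 105). In E5.5 epiblast-like cells Ocln was highest in embryo 4 of plate P7.P4.P5 (54.5 CPM, next 11). In E6.5 endoderm-like cells Krt19 was highest in embryo 7 (170 CPM, next 39.2) and Cldn4 in embryo 6 (41.3 CPM, next 7.78).

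The fitted contrast of the Krt8 lineage difference, E6.5 less E4.5, was -7.19 on the log2 scale (edgeR, adjusted p = 0.0425). The E4.5 epiblast-like class had no Krt8 count, so the size of the contrast is set by the fit, and the call ended without any 1 E4.5 embryo and under 8 other settings.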

How the results depend on the processing

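Alternatives were set against the fold changes of single members that had an unadjusted p of at most 0.05, and signs of the others were not counted. Of these values, 470 kept their direction and side of the threshold, 59 lost it, 16 gained it and 6 reversed. Krt18 against E3.5 reversed with sums of at least 5 cells (0.98 in epiblast-like, 0.34 in PrE-like cells) and without the E3.5 cells that held Cdx2, Gata3 or Elf5 (0.99 and 0.98), as did the Cldn4 contrast of the lineage differences with sums of at least 5 cells (-2.82) and with only E6.5 embryos without a plate name (-6.19); none of these was called. DESeq2 added calls for Ocln from E3.5 to E4.5 epiblast-like (-2.32, adjusted p = 0.00900), Krt18 from E4.5 to E5.5 epiblast-like (3.16, adjusted p = 0.0216) and Krt19 from E4.5 to E6.5 endoderm (5.56, adjusted p = 0.0346). Members called from E3.5 to PrE-like went from 6 to 3 when tested against the log2 limit, when only the compared classes were fitted and without those E3.5 cells. Between the E4.5 lineages they went from 2 to 1 against the log2 limit, with single cells only and with sums of at least 1 cell, and to 1 or 2 when an embryo was left out. From E4.5 to E5.5 epiblast-like they went from 2 to 1 against the log2 limit and with single cells only, and to 4 with only the compared classes. From E5.5 to E6.5 epiblast-like they went from 1 to 0 against the log2 limit and with only embryos without a plate name, and to 4 under Ward clustering. At E6.5, endoderm-like against epiblast-like, they went from 2 to 1 against the log2 limit, under Ward clustering, without cells titled E6.75 and on plates P1 to P3 only, and to 0 with only embryos without a plate name. With those embryos only, E4.5 to E6.5 endoderm went from 3 to 1. The streak-like comparison went from 0 to 1 with sums of at least 1 cell (Krt8, 2.84, adjusted p = 0.0291). The call on the lineage contrast went from 1 to 0 under relative log expression scaling, against the log2 limit, with single cells only, sums of at least 5 cells, Ward clustering, without cells titled E6.75, on plates P1 to P3 only and with only embryos without a plate name, and to 0 without each E4.5 embryo. The cause of these moves was not tested.

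With the embryo as a replicate block, 2 members were called between the E4.5 lineages and 3 at E6.5, where Cldn6 was added. Over all genes the block gave 883 calls at E4.5 and 401 at E6.5, from 10011 and 9149 genes tested, where the fit of only the compared classes without the block gave 806 and 848 and the fit of all 49 sums 701 and 1978. The E6.5 block fit was also held to 7 embryos. Calls over all genes ranged under the alternatives from 1387 to 3143 (2776 as reported) from E3.5 to E4.5 epiblast-like, 1524 to 3103 (2483) from E3.5 to PrE-like, 138 to 1092 (701) between the E4.5 lineages, 408 to 2052 (775) from E4.5 to E5.5 and 350 to 2250 (1098) from E5.5 to E6.5 epiblast-like, 330 to 2815 (1978) between the E6.5 classes, 503 to 2134 (1696) from E4.5 to E6.5 endoderm, 0 to 81 (2) for the streak and 141 to 786 (528) for the lineage contrast. Under Ward clustering 29 E4.5 cells were epiblast-like and 1 of them held Krt8 (29.3 CPM), a cell that was PrE-like in the main classes. The unnamed E6.5 cells, counted as epiblast-like, and the E3.5 cells with trophectoderm genes, left out, were alternatives chosen after seeing the data. Of the cell shares recomputed at limits of 1 and 50 CPM, 75 stayed within their interval and 53 moved beyond it. Precision is limited by sums of few cells and by the single streak-like sum.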
